A study of Bos taurus with 15 samples.

Results

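The genes described here are matrix metalloproteinases (MMPs) and tissue inhibitors of metalloproteinases (TIMPs) of cultured cow cells. The labels name these as endometrial epithelial cells, which line the uterus. They were taken by name: MMP1, MMP2, MMP3, MMP9, MMP14, MMP15, TIMP1, TIMP2 and TIMP3, 9 names in all. A row carried 8 of these names among the 19994 genes of the deposited RNA sequencing table, and MMP3 was not analysed here. Of the 8, 5 had enough reads for a test (MMP2, MMP14, MMP15, TIMP1 and TIMP2), MMP1 had few reads, and MMP9 and TIMP3 were listed at 0 in every library.

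The messenger RNA came from cells described as primary bovine endometrial epithelial cells. They were scraped post mortem from 4 uteri of Bos taurus beef cows, pooled, frozen and thawed at passage 3. Monolayers at 90% confluence were kept for 48 h in 150 µL of synthetic oviductal fluid medium with 5% fetal bovine serum, and every well had a transwell insert. Morulae made in vitro, aged 5.5 days, were added 15 ± 1 at a time, either onto the monolayer (contact) or into the insert, apart from the cells (no contact). The control group had no embryos, and each of the 3 groups had 5 libraries. The comparisons ask whether the cells' transcripts differ when embryos are present, and whether they differ between embryos on the monolayer and embryos in the insert. As all cells came from the same pooled stock, p-values measure the spread between cultures and not between cows. The sample descriptions give 6 experiments and 2 to 4 wells, but not which libraries share an experiment. The main test treats the libraries as independent, and whether they are is not known.

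MMPs are zinc-dependent enzymes that cut collagens, laminins and other proteins of the extracellular matrix. They are made as inactive precursors, and TIMPs bind their active site and block it. MMP2, a gelatinase, is activated at the cell surface by the membrane-bound MMP14, in a complex in which TIMP2 serves as the link. In the endometrium these genes are known for matrix remodelling over the cycle and around implantation, which in cattle proceeds by attachment of the trophoblast without deep invasion of the uterine wall.

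Between 4195091 and 19792557 reads were assigned to genes per library. Contact libraries 97 and 108 were the shallowest, and the other 13 libraries had at least 12938091. Values below are normalised read counts, that is reads divided by the library's size factor. The epithelial keratin KRT8 averaged 33592 ± 3718 (SD, n = 5) in control cells and the epithelial cadherin CDH1 1270 ± 87, but the epithelial markers EPCAM and CLDN4 were near 0 in each group, with means of at most 0.714 and 2.17. The stromal collagen gene COL1A1 averaged 102559 ± 12160 in control cells. The summed level of 10 stromal markers ran from 360594 to 384741 in control libraries, from 315250 to 382635 in those with embryos apart and from 341240 to 407645 in contact libraries, against 50900 to 67853, 50239 to 70662 and 47558 to 65977 for 9 epithelial markers. Although the labels name the cells epithelial, the summed stromal level was above the summed epithelial level in every library. The stromal marker THY1 had few reads and DES group means lay between 8.02 and 10.5. One stromal marker, LUM, was higher in contact than in control cells, by 0.42 on the log2 scale with an adjusted p of 0.0135 in limma, and none of the 7 epithelial markers tested was called. Of 5 leukocyte markers, LYZ was listed at 0, PTPRC and CD3E had few reads, and CD14, known from monocytes and macrophages, was lower in contact, at 81.4 normalised reads against 118 in control and 109 in no contact cells (log2 differences -0.52 and -0.41, adjusted p = 0.00329 and 0.0345 in limma). The summed level of these 5 ran from 213 to 560 in control, from 188 to 412 in no contact and from 158 to 544 in contact libraries. Whether the makeup of the cultures has a part in the values below was not tested, and in such bulk samples fewer cells of a type and less RNA per cell cannot be told apart.

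**Figure D1:**
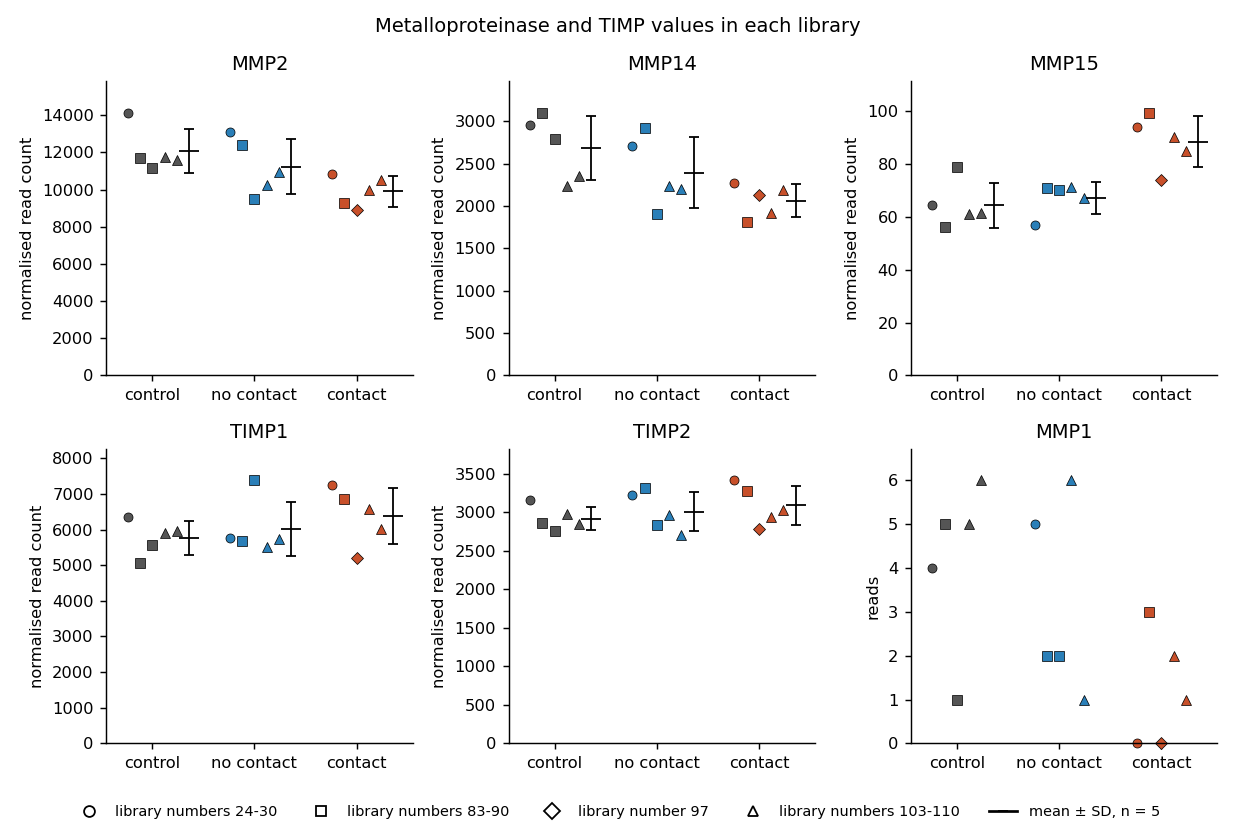
Normalised read counts of MMP2, MMP14, MMP15, TIMP1 and TIMP2, and reads of MMP1, in each of the 15 libraries (y axes) by group (x axes). Point shape gives the run of neighbouring library numbers and bars give the mean ± SD of 5 libraries. MMP2 lies between 8882 and 10838 in the contact libraries, below all control libraries, and MMP15 lies between 73.9 and 99.4, above all no contact libraries.

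With embryos in contact, the transcripts of the gelatinase MMP2 and of its membrane activator MMP14 were lower than in cells alone, the transcript of the membrane enzyme MMP15 was higher, and neither TIMP1 nor TIMP2 passed the test. MMP2 fell by 17.9%, MMP14 fell by 22.9% and MMP15 rose by 37.1%. Of the 5 members tested, contact left 1 higher and 2 lower than control, where 7.17% of all 12559 genes tested were called higher and 5.78% lower. Calls are adjusted p-values under 0.05 in limma over all genes tested. The median log2 difference of the 5 members was 0.08, against -0.01 for all genes tested.

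MMP2 (ENSBTAG00000019267) cuts denatured collagen and the type IV collagen of basement membranes. Control libraries BEEC.24, BEEC.83, BEEC.84, BEEC.103 and BEEC.104 (by their labels, below by number where shorter) held 14148, 11707, 11159, 11748 and 11605 normalised reads. No contact libraries 30, 89, 90, 109 and 110 held 13082, 12378, 9476, 10266 and 10938. Contact libraries 28, 87, 97, 107 and 108 held 10838, 9285, 8882, 9967 and 10528. Every contact library was below every control library, and the no contact libraries spread over both ranges. The group means were 12073 ± 1183, 11228 ± 1487 and 9900 ± 821 (SD, n = 5). The log2 difference between contact and control was -0.29 ± 0.09 (SE), with a 95% interval from -0.47 to -0.10 and an adjusted p of 0.0406 in limma. This call sat close to the threshold: it was lost without control library 24 (adjusted p = 0.128 in limma), 83, BEEC.103 or BEEC.104, without contact library 87, 97 or 107, without contact libraries 97 and 108 together (adjusted p = 0.153) and with no filter on low genes (adjusted p = 0.0565), while the difference stayed between -0.32 and -0.23 in all alternatives.

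MMP14 (ENSBTAG00000014824), also called MT1-MMP, is a transmembrane enzyme that cuts fibrillar collagen and turns the MMP2 precursor into its active form. The control libraries, in the order above, held 2958, 3103, 2795, 2236 and 2350 normalised reads. The no contact libraries held 2714, 2922, 1901, 2236 and 2201. The contact libraries held 2275, 1810, 2131, 1921 and 2184. Control libraries BEEC.103 and BEEC.104 stood near the lower no contact libraries, and contact library 28 was above control library BEEC.103, so the groups overlapped. The means were 2688 ± 379, 2395 ± 414 and 2064 ± 193 (SD, n = 5), and the log2 difference between contact and control was -0.37 ± 0.11 (SE; 95% interval -0.61 to -0.14; adjusted p = 0.0305 in limma). The call was lost without control library 24, 83 or 84 or contact library 87, 97 or 107, or 97 and 108 together, with adjusted p up to 0.0948 in limma.

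MMP15 (ENSBTAG00000012919), also called MT2-MMP, is another transmembrane enzyme of the family. The control libraries held 64.3, 56.2, 78.7, 61.1 and 61.4 normalised reads. The no contact libraries held 56.8, 70.8, 70.1, 71.4 and 67.3. The contact libraries held 94.0, 99.4, 73.9, 90.1 and 84.9. All contact libraries were above all no contact libraries, and only control library 84 exceeded the lowest contact library, number 97, whose value rests on 22 reads. The means were 64.3 ± 8.5, 67.3 ± 6.1 and 88.5 ± 9.7 (SD, n = 5). The log2 difference between contact and control was 0.46 ± 0.12 (SE; 95% interval 0.20 to 0.72; adjusted p = 0.0178 in limma), a call lost without control library 83 (adjusted p = 0.0573) or contact library 87 (adjusted p = 0.0575).

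Neither inhibitor passed the test. TIMP1 (ENSBTAG00000005043), a secreted inhibitor known for binding the MMP9 precursor, held 6345, 5072, 5561, 5908 and 5965 normalised reads in the control libraries and 7241, 6863, 5202, 6589 and 6016 in the contact libraries. The no contact libraries held 5760, 5679, 7382, 5519 and 5742. These ranges overlapped throughout, and the log2 difference between contact and control was 0.14 ± 0.09 (SE; 95% interval -0.05 to 0.33; adjusted p = 0.367 in limma).

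TIMP2 (ENSBTAG00000010899), the inhibitor that also links MMP14 to the MMP2 precursor, held 3156, 2861, 2754, 2974 and 2855 normalised reads in the control libraries. The no contact libraries held 3226, 3313, 2840, 2962 and 2704, and the contact libraries 3415, 3277, 2786, 2940 and 3033. No group stood apart, and the coefficient of variation within a group, 5.25% to 8.53%, was the narrowest of the 5 members in each group. The log2 difference between contact and control was 0.08 ± 0.07 (SE; 95% interval -0.07 to 0.23; adjusted p = 0.521 in limma).

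Library numbers fall into 4 runs, whose meaning the labels do not give. Within the 3 runs that hold both groups, MMP2 was lower in contact than control by log2 differences of -0.38 (libraries 24 to 30), -0.30 (83 to 90) and -0.19 (BEEC.103 to 110). MMP14 differed by -0.38, -0.70 and -0.16 in the same order. MMP15 differed by 0.54, 0.57 and 0.51, the most even of the 5. The differences of TIMP1 were 0.19, 0.37 and 0.08 and those of TIMP2 0.11, 0.22 and 0.04, all toward contact. Contact library 97 has no partner in its run.

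Morulae kept apart from the cells in the insert gave no called change in any member. Of the 5 members, 0 were called in no contact against control by limma, 0 had an unadjusted p under 0.05, and edgeR, DESeq2 and limma-voom also called 0, while 1.48% of all genes tested were called higher and 0.111% lower. The log2 difference of MMP2 was -0.11 ± 0.09 (SE; 95% interval -0.30 to 0.08; adjusted p = 0.785 in limma). That of MMP14 was -0.17 ± 0.11 (95% interval -0.40 to 0.06), that of MMP15 was 0.07 ± 0.12 (-0.19 to 0.33), that of TIMP1 was 0.06 ± 0.09 (-0.14 to 0.25) and that of TIMP2 was 0.04 ± 0.07 (-0.11 to 0.19). For MMP2 and MMP14 these intervals reach into the size of the difference seen with contact; a change of part of that size was not detectable with 5 cultures a group. No contact library 90 held the lowest MMP2 and MMP14 and the highest TIMP1 of its group.

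**Figure D2:**
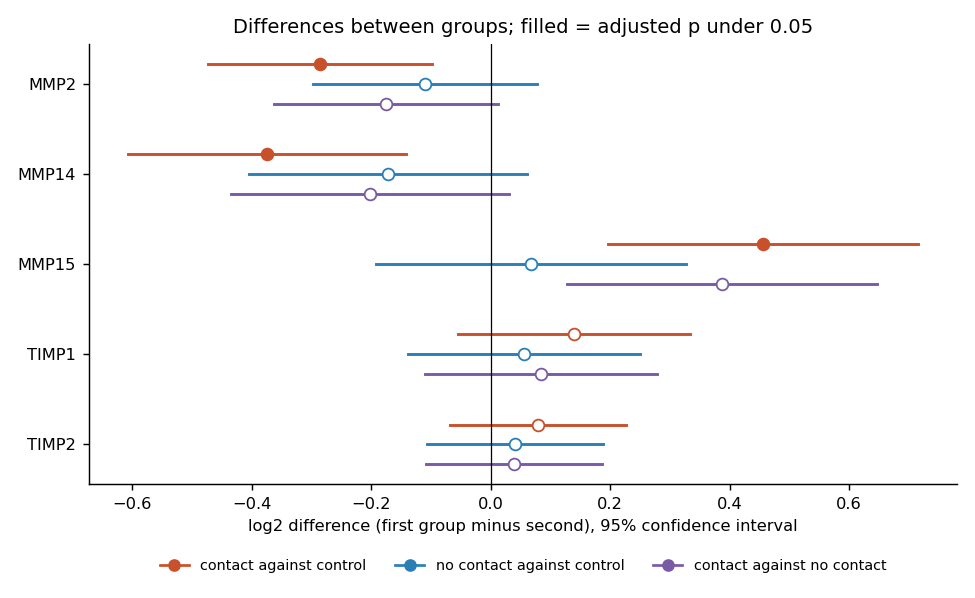
Log2 differences between groups (x axis, first group minus second, with 95% confidence intervals) for the 5 members tested (y axis), in 3 comparisons. Filled points have an adjusted p under 0.05 in limma. Only the contact against control differences of MMP2 (-0.29), MMP14 (-0.37) and MMP15 (0.46) are filled.

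The direct comparison of contact with no contact sets embryos on the monolayer against embryos in the insert. Touch and nearness to the embryo change together between these groups and cannot be told apart. In limma 0 of the 5 members were called, where 3.73% of all genes tested were called higher and 1.82% lower, and 1 member, MMP15, had an unadjusted p under 0.05. The log2 difference of MMP15 was 0.39 ± 0.12 (SE; 95% interval 0.13 to 0.65) with an adjusted p of 0.0747 in limma. With other fits it was called: adjusted p was 0.0407 in edgeR, 0.0329 in DESeq2, 0.0293 in limma-voom and 0.0223 in limma with runs of library numbers as blocks. MMP2 differed by -0.18 ± 0.09 (95% interval -0.36 to 0.01; adjusted p = 0.289 in limma) and MMP14 by -0.20 ± 0.11 (-0.43 to 0.03; adjusted p = 0.325). TIMP1 differed by 0.08 ± 0.09 (-0.11 to 0.28) and TIMP2 by 0.04 ± 0.07 (-0.11 to 0.19).

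The group means ran from control through no contact to contact, downward for MMP2 and MMP14 and upward for MMP15, TIMP1 and TIMP2. How many of all genes tested have means in such an order was not counted. Without no contact library 90, the log2 difference of TIMP1 between no contact and control was -0.020. Of the 10 steps between neighbouring groups, 0 were called in the main test. The step of MMP15 from no contact to contact was called in the other fits named above.

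In the authors' deposited table the FDR for contact and control was 0.0201 for MMP2, 0.0123 for MMP14, 0.00764 for MMP15, 0.372 for TIMP1 and 0.527 for TIMP2. For contact and no contact, the authors' deposited table gives MMP15 an FDR of 0.0393, below the threshold that limma missed, and MMP2 and MMP14 FDRs of 0.283 and 0.320.

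MMP1, MMP3 and MMP9, the interstitial collagenase, stromelysin 1 and gelatinase B, are secreted enzymes often named in the endometrium. MMP1 (ENSBTAG00000015818) had 43 reads over all 15 libraries. The control libraries held 4, 5, 1, 5 and 6 reads, the no contact libraries 5, 2, 2, 6 and 1, and the contact libraries 0, 3, 0, 2 and 1. The 2 contact libraries at 0 were numbers 28 and 97, and the ranges of the groups overlapped. MMP1 did not pass the filter on low genes. With no filter, its log2 difference between contact and control was -1.12 ± 0.47 (SE) with an adjusted p of 0.154 in limma, so no difference was detectable at this depth.

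MMP1 lies in a row of neighbouring MMP genes, in the RefSeq order MMP13, MMP12, MMP3, MMP1, MMP8, MMP27, MMP20 and MMP7. MMP12 and MMP3 were not analysed here. Of the others, MMP7, known as matrilysin, an enzyme of glandular epithelia, had 1963 reads over the 15 libraries, while MMP20 had 24, MMP8 had 1, and MMP13 and MMP27 were listed at 0. MMP7 averaged 121 ± 10 normalised reads in control, 115 ± 24 with embryos apart and 131 ± 20 with contact (SD, n = 5). Its log2 difference between contact and control was 0.11 ± 0.14 (SE; adjusted p = 0.683 in limma).

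MMP9 (listed at 0 in all 15 libraries) and TIMP3 (likewise) give no level. POLG, the mitochondrial DNA polymerase, and PSMC4, a proteasome subunit, were listed at 0 in all libraries too, although all cells use these genes. A 0 in this table therefore does not show by itself that a transcript was absent. TIMP3 encodes an inhibitor that binds to the matrix and also blocks ADAM17 and ADAMTS enzymes. In RefSeq (ARS-UCD2.0) it lies within SYN3, the gene of the neuronal vesicle protein synapsin III, and reads of overlapping genes cannot be told apart in a table of gene sums. TIMP1 lies likewise within SYN1, and TIMP4, listed at 0, within SYN2. POLG and PSMC4 each overlap another RefSeq gene in part (FANCI and LOC104974868), while MMP9 overlaps no other RefSeq gene. In this respect MMP9 is unlike POLG and PSMC4, and why any of these genes is listed at 0 was not tested.

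SYN3, named after its values were seen, held between 2380 and 12112 reads in each library. The control libraries held 9088, 8380, 8956, 9255 and 9772 normalised reads. The no contact libraries held 9047, 8084, 9032, 8686 and 8414, and the contact libraries 7575, 8010, 7998, 7104 and 7290. Every contact library was below every control and every no contact library. The log2 difference between contact and control was -0.26 ± 0.06 (SE; adjusted p = 0.00847 in limma), and it was called in every alternative, with adjusted p up to 0.0357. Between contact and no contact it was -0.19 ± 0.06 (adjusted p = 0.0887 in limma, 0.0342 with the run block and 0.0182 in DESeq2). Whether any of these reads came from TIMP3 was not tested. MMP14 and TIMP2 also overlap other RefSeq genes in part, RBM23 and CEP295NL. RBM23 averaged 1009 ± 87 in control and 1091 ± 136 in contact cells (adjusted p = 0.485 in limma), whereas MMP14 was lower with contact.

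Ratios of an enzyme to its inhibitor within a library need no size factor. They are ratios of normalised reads, not of molecules, since gene lengths were not used here, and they are given without a test. MMP2 over TIMP2 was 4.48, 4.09, 4.05, 3.95 and 4.06 in the control libraries. It was 4.06, 3.74, 3.34, 3.47 and 4.05 in the no contact libraries and 3.17, 2.83, 3.19, 3.39 and 3.47 in the contact libraries. Each contact library was below each control library, and the no contact libraries lay across the gap. MMP2 over TIMP1 ran from 1.95 to 2.31 in control, from 1.28 to 2.27 in no contact and from 1.35 to 1.75 in contact libraries, so that control and contact again did not overlap. MMP14 over TIMP2 averaged 0.922 ± 0.136, 0.792 ± 0.083 and 0.671 ± 0.080 (SD, n = 5) in control, no contact and contact cells, and MMP14 over TIMP1 0.471 ± 0.094, 0.406 ± 0.098 and 0.328 ± 0.058. Both had overlapping ranges, since control library BEEC.103, at 0.752 and 0.378, was below contact library 97, at 0.765 and 0.410. MMP15 over TIMP2 went the other way, with means of 0.0221 ± 0.0037, 0.0225 ± 0.0031 and 0.0286 ± 0.0018. The ratio of MMP14 to MMP2 was 0.223 ± 0.032, 0.213 ± 0.015 and 0.209 ± 0.019, within its own spread in all groups.

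**Figure D3:**
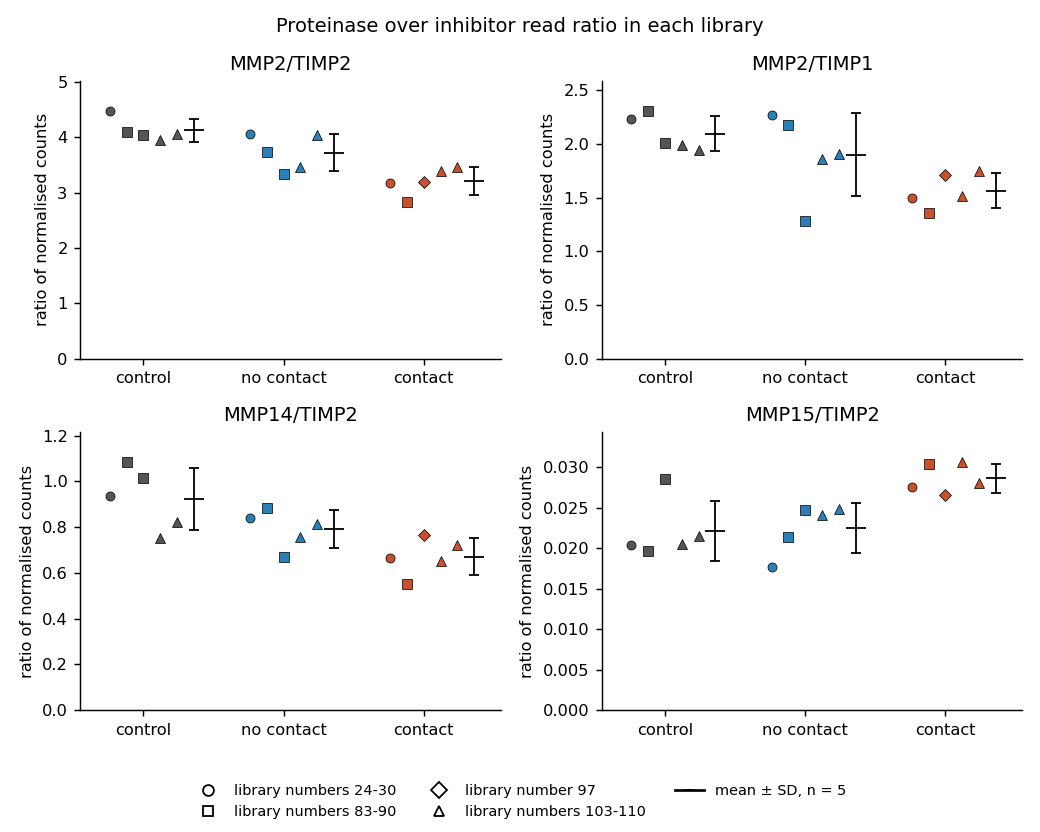
Ratio of the normalised read count of an enzyme to that of an inhibitor (y axes) in each of the 15 libraries by group (x axes), with the mean ± SD of 5 libraries. Point shape gives the run of library numbers. MMP2/TIMP2 lies between 2.83 and 3.47 in contact libraries and between 3.95 and 4.48 in control libraries.

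Genes whose values followed the members most closely over the 15 libraries were looked up among 10492 tested genes, by Pearson correlation of log2 values. The libraries share their groups and runs, so this is a description. For MMP2 they were LAMB2 (r = 0.965), a laminin chain, DUSP7 (0.935), a phosphatase of MAP kinases, and C3 (0.935), the central complement component. LAMB2 averaged 1657, 1567 and 1374 normalised reads in control, no contact and contact cells, with an adjusted p of 0.0600 for contact against control in limma. For MMP14 they were POLRMT (0.928), MYH10 (0.928) and GPRC5B (0.923), of which MYH10, a non-muscle myosin, differed between contact and control by -0.53 on the log2 scale (adjusted p = 0.00313 in limma). MMP15 was followed by DDX52 (0.870), RIPK1 (0.849) and CBLL1 (0.844). TIMP1 was followed by PSMB1 (0.853), EDEM2 (0.837) and NELFCD (0.836), and TIMP2 by SREBF2 (0.876), PPL (0.875) and SLC12A7 (0.856).

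Beyond the members, the secreted MMPs also moved in both directions with contact. The membrane enzymes MMP16, MMP17 and MMP24 all had log2 differences from control below 0. Of 19 further names (other MMPs and TIMP4), 14 had a row and 7 were tested, of which 1 was higher and 2 lower in contact than control. Of all genes tested, 7.17% were called higher and 5.78% lower. The list's median log2 difference was -0.15. MMP16 (MT3-MMP), a membrane enzyme like MMP14, averaged 275 ± 10 normalised reads in control, 239 ± 39 with embryos apart and 183 ± 21 with contact (SD, n = 5). Its log2 difference between contact and control was -0.59 ± 0.10 (SE; adjusted p = 0.000471 in limma), with every contact library below every control library, and it was called in every alternative. MMP16 was also lower in contact than no contact, by -0.38 (adjusted p = 0.0348), but that call was lost in 7 of the 15 fits without a library, those without no contact library 30, 109 or 110 or contact library 28, 87, 97 or 108. It was also lost with no filter, with these groups fitted alone (adjusted p = 0.0979), in limma-voom (0.0746) and without contact libraries 97 and 108 together (0.165). MMP11 (stromelysin 3), known from stroma, fell from 145 ± 16 to 109 ± 13 (log2 difference -0.41, adjusted p = 0.0356 in limma), and its call was lost without control library 24, 83 or 84 or contact library 87, 97 or 107, or 97 and 108 together. MMP19, a secreted enzyme of wide occurrence, rose from 1368 ± 84 to 1621 ± 137 (0.24, adjusted p = 0.0156), a call lost without control library 84 or contact library 28. Among the transmembrane enzymes tested, contact was lower for MMP14 and MMP16 and higher for MMP15, and MMP24 differed by -0.15 (95% interval -0.46 to 0.17). MMP17, also a membrane enzyme, was at 15.8 ± 6.3 normalised reads in control and 9.15 ± 2.8 in contact cells (SD, n = 5). It was not called (log2 difference -0.69, adjusted p = 0.172 in limma).

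The related ADAM and ADAMTS enzymes, which shed surface proteins or cut proteoglycans and procollagens, had 27 names, all with a row, and 21 were tested. In contact against control, 0 were higher and 7 lower, where 7.17% and 5.78% of all genes tested were called. The list's median log2 difference was -0.19. With the run block 1 gene of the list was called higher, and the share of all genes called higher in that fit is not given here. ADAMTS1, an aggrecan- and versican-cutting enzyme, fell from 3634 ± 566 normalised reads in control to 2462 ± 297 in no contact and 1533 ± 184 in contact cells (SD, n = 5). Its log2 differences were -1.24 ± 0.11 (SE) for contact against control (adjusted p = 3.33e-08 in limma), -0.56 for no contact against control (adjusted p = 0.00413) and -0.68 for contact against no contact (adjusted p = 0.000401). The procollagen-cutting ADAMTS14 fell from 347 ± 65 in control to 186 ± 33 in contact cells (-0.90, adjusted p = 5.90e-05) and was lower in contact than no contact by -0.69 (adjusted p = 0.00236). ADAMTS9, a proteoglycan-cutting relative, differed between contact and control by -0.64 (adjusted p = 0.000902) and ADAM17, the enzyme that releases TNF from the cell surface, by -0.47 (adjusted p = 0.00737 in limma). In no contact against control, ADAMTS1 alone of the 21 was called by the main test, where 0.111% of all genes tested were lower. ADAM17 (log2 difference -0.37) was also called lower with the run block (adjusted p = 0.0107 in limma) and without no contact library 30 (0.0369). The contact against control calls of ADAMTS1, ADAMTS14, ADAMTS9 and ADAM17 were kept in every alternative, and those of ADAM12, ADAM19 and ADAM8 were not. ADAM12 lost its call with the run block (adjusted p = 0.0600 in limma) and without contact libraries 97 and 108 together (0.0594). It also lost it without control library 83 or 84 or contact library 87. ADAM19 lost its call without contact library 87 (0.0519) and ADAM8 without contact libraries 97 and 108 together (0.0509).

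**Figure D4:**
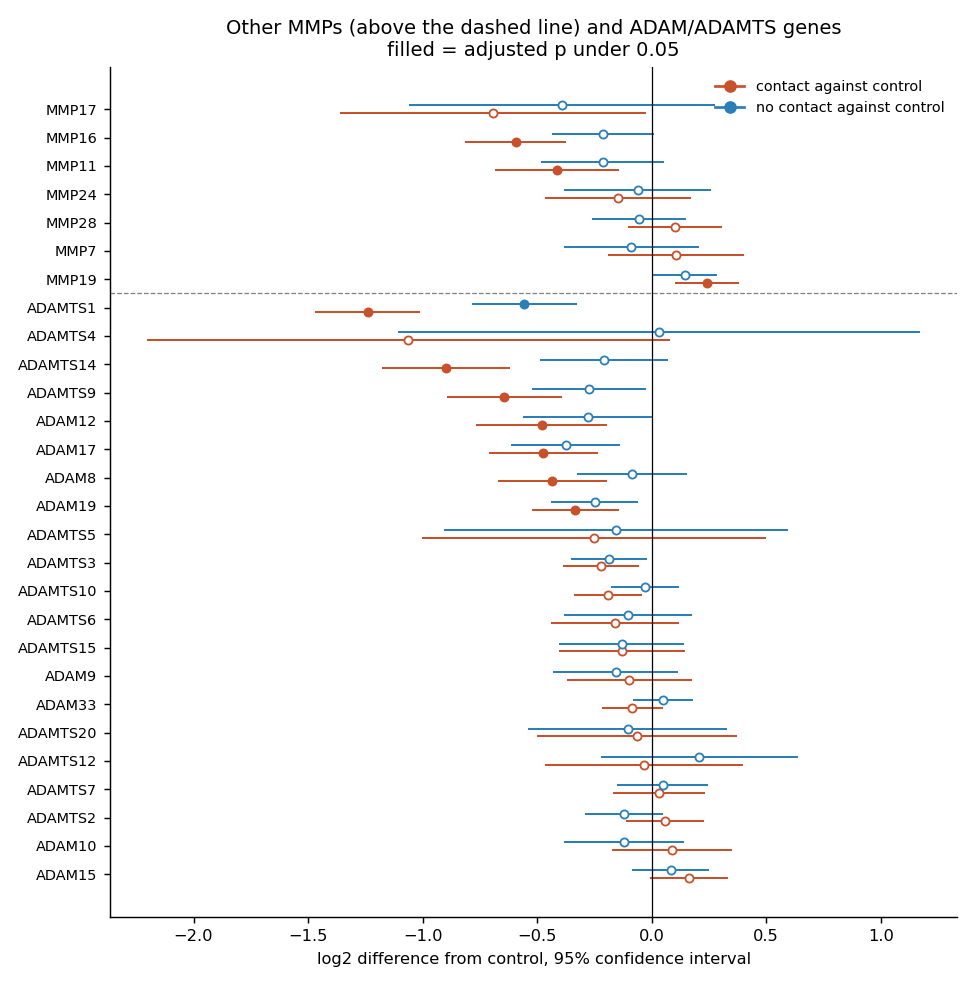
Log2 differences from control (x axis, with 95% confidence intervals) of 7 other MMPs and 21 ADAM and ADAMTS genes (y axis), for contact and for no contact. Filled points have an adjusted p under 0.05 in limma. With contact, 7 of the 21 ADAM and ADAMTS genes are filled, all below 0, where 5.78% of all genes tested were called lower. Without contact ADAMTS1 alone is filled, where 0.111% of all genes tested were called lower.

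Plasmin cuts and activates several MMP precursors. Of 12 genes of plasminogen activation, 8 were tested. In contact against control PLAT was the 1 called higher by the main test, where 7.17% of all genes tested were called higher. With the run block 3 of the list were called higher, and 2 with these groups fitted alone or without no contact library 90. The 7.17% is the share in the main test, where 901 genes were called higher. With a library left out 687 to 1102 were, and the shares in the other 2 fits are not given here. PLAT, the tissue plasminogen activator, was at 1595 ± 68 normalised reads in control, 1598 ± 31 with embryos apart and 2066 ± 155 with contact (SD, n = 5). It rose by 0.37 on the log2 scale against control (adjusted p = 0.000145 in limma) and by 0.37 against no contact (adjusted p = 0.000396). PLAU, the urokinase activator, was at 760 ± 229, 628 ± 187 and 471 ± 62 (adjusted p = 0.0863 for contact against control).

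Of 18 genes of MMP activation, inhibition and clearance, 16 were tested, with 1 higher and 3 lower in contact than control. Of all genes tested, 7.17% were called higher and 5.78% lower. TMPRSS2, a serine protease of the epithelial surface, had 1 read in the 5 control libraries together, 268 in the no contact and 458 in the contact libraries. Its mean was 44.8 ± 25.8 normalised reads in no contact and 94.0 ± 30.2 in contact cells (SD, n = 5). It was called higher than control in both (adjusted p = 6.72e-11 and 1.06e-12 in limma), and higher in contact than no contact (adjusted p = 0.0350), a call lost in DESeq2 (adjusted p = 0.0800), with a pseudocount of 0.5, with no filter, with these groups fitted alone and without no contact library 30, 89 or 110 or contact library 28 or 87. The others were THBS2, a thrombospondin known in mice to promote clearance of MMP2 (log2 difference -0.48, adjusted p = 0.0201), PCSK5, a proprotein convertase (-0.28, adjusted p = 0.0209) and the hyaluronan receptor CD44 (-0.26, adjusted p = 0.0497). These calls were not kept in every fit: THBS2 lost its call without control library 24 or contact library 87 or 97, PCSK5 without control library 24 or 83 or contact library 28, and CD44 in 11 of the 15 fits without a library, with a pseudocount of 0.5, with no filter, with TMM factors and in limma-voom. Without contact libraries 97 and 108 together, THBS2, PCSK5 and CD44 all lost it (adjusted p = 0.0804, 0.0631 and 0.125 in limma). FURIN, the convertase that activates MMP14, was at 1472 ± 128 in control and 1436 ± 196 in contact cells (-0.04, 95% interval -0.29 to 0.20), and RECK, a membrane-anchored MMP inhibitor, at 185 ± 15 and 202 ± 22 (0.13, -0.14 to 0.39).

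AP-1 and ETS factors are known regulators of MMP promoters. Of 15 such names, 14 were tested, with 1 higher and 2 lower in contact than control, against 7.17% and 5.78% of all genes tested. JUNB, an AP-1 subunit, fell from 4408 ± 483 in control to 3153 ± 469 normalised reads in contact cells, with 4467 ± 575 in no contact cells (SD, n = 5). Its log2 difference was -0.49 against control (adjusted p = 0.00335 in limma) and -0.51 against no contact (adjusted p = 0.00528). RUNX1 was lower in contact than control (-0.37, adjusted p = 0.0277) and ETS2 higher (0.38, adjusted p = 0.0438). RUNX1 lost its call with the run block (log2 difference -0.30, adjusted p = 0.0719 in limma) and in limma-voom (0.0524), ETS2 with no filter (0.0620), and both without contact libraries 97 and 108 together (0.114 and 0.0600). Without a single library, RUNX1 lost its call for control library 83 or 84 or contact library 28, 87 or 97, and ETS2 for control library 83, 84 or BEEC.104, no contact library 110 or contact library 28, 87, 97 or 107. FOS and JUN differed between contact and control by -0.29 (95% interval -0.84 to 0.26) and 0.00 (-0.44 to 0.45).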

How the data were processed

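Polyadenylated RNA of 15 cultures was sequenced in paired reads of 100 bases, per the labels' protocols. The authors deposited 1 signal per gene and library, read counts divided by a size factor. The submitters' processing notes name HISAT2 2.1.0, featureCounts 1.6.2 and DESeq2 1.18.1. The genome build is not given in the sources used here, nor are the annotation and whether counting used strand. The same deposited table gives the authors' log2 fold changes, Wald score, p-value and FDR, with control first in the comparisons with control. Dividing by the value of 1 read gave whole reads (to within 0.01) for 100% of values in each library.

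The main test was limma 3.58.1 (R 4.3.3, trend and robust) on log2(value + 1), over all 15 libraries with 1 coefficient per group, for 12559 genes with at least 10 normalised reads in at least 5 libraries. Adjusted p is Benjamini-Hochberg over these genes, with a threshold of 0.05. This scale understates changes of low genes. The fit was tested on simulated data. Alternatives were pseudocounts of 0.5 and 5, no filter or one of 50, a block for runs of library numbers, fits of 2 groups, TMM factors, edgeR 4.0.16, DESeq2 1.42.0, limma-voom, and libraries left out. RefSeq (ARS-UCD2.0) served only for overlaps and gene order. Members and lists were chosen with earlier results of these data known. Of each list, the text names genes called in any comparison, up to 4 per comparison by p. It also names the other ADAM genes called, for their lost calls. A few more genes were chosen after their values were seen (SYN3, RBM23, PLAU, MMP7, MMP17, MMP24, FURIN, RECK, FOS and JUN). A result of the plasminogen list is not reported here.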

Additional observations from a re-analysis of the deposited data

Results flagged for a closer look

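Among 36 groups of 5 libraries (members, SYN3 and ratios), 6 held a library far from the other 4. Chance flags about 1 group in 20. The groups are not independent, as the ratios reuse the members' values, so whether 6 exceeds chance cannot be told. Control library 24 had the highest MMP2 of its group, 14148 normalised reads against 11748 for the next, and the highest MMP2/TIMP2 ratio, 4.48 against 4.09. No contact library 90 had the highest TIMP1, 7382 against 5760. No contact library 30 had the lowest MMP15, 56.8 against 67.3. Control library 84 had the highest MMP15 over TIMP1, 0.0141 against 0.0111, and the highest MMP15 over TIMP2, 0.0286 against 0.0215.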

How the results depend on the processing

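Of 390 repeated tests of the 5 members, 367 kept direction and side of the threshold, 18 lost a call, 4 gained a call (MMP15, contact against no contact) and 1 turned direction. Most of the 390 repeat results that were not called and so had no call to lose. In contact against control, MMP2 lost its call in 7 of 15 fits without a library and 2 of 11 other fits. MMP14 lost it in 6 of 15 and 1 of 11, and MMP15 in 2 of 15 and 0 of 11. Called lower members in contact against control numbered 1 with no filter, 0 without contact libraries 97 and 108 (adjusted p = 0.153 for MMP2 and 0.0678 for MMP14 in limma) and 0 to 2 with a library left out, and called higher members 0 to 1. In contact against no contact 1 member was higher with the run block, edgeR, DESeq2 or limma-voom. Over all genes, 420 were lower in contact than control without libraries 97 and 108, and 473 to 980 with a library left out, against 726. In no contact against control 52 were lower with the run block, 33 in DESeq2 and 3 to 19 with a library left out, against 14. In contact against no contact 306 were higher without libraries 97 and 108, against 469, and 344 lower with the run block, 111 with these groups alone, 84 without libraries 97 and 108 and 115 to 349 with a library left out, against 229. With a library left out, log2 differences of no contact from control crossed 0, none of them called: TIMP1 (-0.020 to 0.091, below 0 only without no contact library 90), ADAM8 (-0.15 to 0.016), JUNB (-0.043 to 0.086), PLAT (-0.017 to 0.021) and THBS2 (-0.16 to 0.014). Leaving out libraries leaves fewer samples, and otherwise the cause was not tested. No paired analysis was possible because the labels give no replicate number shared between groups. Depth limits MMP1, with 43 reads in all, and MMP15, with 22 to 123 reads a library.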
